A study of Homo sapiens with 8 samples.

Results

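CDIP1, POLR3C, IVNS1ABP, SLC29A1, TFPI and MFAP2 are 6 human genes whose mix of transcripts differed between pluripotent stem cells and at least 1 of 3 germ-layer cultures made from them. They were taken as the transcripts counted under these gene symbols that the combined transcript assembly also assigns to the gene, which left 29 of 30 listed transcripts, out of 96614 in the whole table. The transcript left out has no gene assigned in the assembly and lies antisense to TFPI. The cells were of the H1 line of human embryonic stem cells, and the labels name no engineered allele. The 4 groups, with 2 long-read libraries each, were undifferentiated cells (hPSC) kept in mTeSR1, endoderm cells given WNT3A and Activin A, mesoderm cells given VEGF, BMP4, bFGF and, during the opening day, Activin A, and ectoderm cells given the inhibitors A83-01, PNU-74654 and Dorsomorphin. The 3 layers were collected after 5 days. The labels do not say whether the repeats came from separate cultures, so the spread between repeats may be technical.

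The genes were chosen from their transcript shares in these same comparisons, so the shares and levels of the 6 genes are given as a description, without tests. In a test of transcript choice (edgeR's diffSpliceDGE over 2629 genes with at least 2 testable transcripts, Benjamini-Hochberg adjusted p under 0.05) the share of all genes called was 5.63% for ectoderm, 5.06% for endoderm and 7.00% in mesoderm, and 4 of the 6 genes were called in each layer. Nothing is read from that count, nor from the ranks that follow, since the same contrasts chose the genes. In order of p, TFPI ranked 2 and MFAP2 ranked 6 in ectoderm, CDIP1 ranked 3 and POLR3C ranked 4 in endoderm, and IVNS1ABP ranked 3 and SLC29A1 ranked 7 in mesoderm.

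Library totals ranged from 503840 to 1180888 counts, with both ectoderm libraries the deepest. A count of 0 allows up to 3 counts, which is from 2.54 to 5.95 CPM, the usual scaling of counts by the library total. Intervals and such limits cover counting error only. Transcripts with a retained intron by the assembly's class codes took 1.62% and 1.91% of counts in hPSC, 3.06% and 3.28% for ectoderm, 1.61% and 1.62% for endoderm and, for mesoderm, 2.32% and 2.43%. This share leaves out retained forms with another class code, among them those of IVNS1ABP and MFAP2 and 1 of SLC29A1. Of the markers of each label, POU5F1 was at 352 to 372 counts in hPSC, PAX6 at 79 to 170 in ectoderm and CER1 at 974 to 1181 in endoderm. These are raw counts of 1 marker each, and the other markers of these 3 labels are not given here. The libraries labelled mesoderm had HAND1 at 263 and 274 counts, while TBXT was at 1 and 0 and MIXL1 and FOXF1 were at 0. They also had GABRP, known from amnion and trophoblast, at 2269 and 2355 counts against at most 9 elsewhere. The other markers on the list of those tissues are not compared between groups here. The part of this in the mesoderm results was not tested. In bulk RNA, fewer cells of a kind and less RNA per cell cannot be told apart.

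A gene can change its message without changing its level. Use of another start replaces the first exon and often only the leader ahead of the coding region, use of another splice donor lengthens or shortens an exon, and an intron kept in the message usually brings a stop codon into the reading frame. Long reads span such places together with the rest of the transcript. CDIP1 encodes a membrane protein linked to cell death, POLR3C a subunit of RNA polymerase III, IVNS1ABP a BTB-kelch protein that binds the influenza NS1 protein, SLC29A1 the equilibrative nucleoside transporter ENT1, TFPI the inhibitor of the tissue factor pathway of coagulation, and MFAP2 a glycoprotein of elastic microfibrils.

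The sequences at the places that differ are shown for the genes whose finding rests on a start, a donor, an intron or an exon. All 6 genes have a promoter window in the RefSeq table of GRCh38.p14, and 4 windows are printed, cut so that only 30 bases of the assembled transcript remain at the 3′ end. They are the regions ahead of the 2 starts of CDIP1, on the minus strand of chromosome 16, and of SLC29A1, on the plus strand of chromosome 6. The upstream window of SLC29A1 is cut at the earliest upstream start, 44219553, of a transcript with 76 counts in all. It ends ahead of the main upstream start at 44219615 and leaves out the bases directly before that start. Capitals mark every match, on either strand, to TGACGTCA (the cAMP response element), CACGTG (an E-box), GGGCGG (a GC box), TATAAA or CCAAT.
CDIP1 upstream, chr16:4538744-4539023: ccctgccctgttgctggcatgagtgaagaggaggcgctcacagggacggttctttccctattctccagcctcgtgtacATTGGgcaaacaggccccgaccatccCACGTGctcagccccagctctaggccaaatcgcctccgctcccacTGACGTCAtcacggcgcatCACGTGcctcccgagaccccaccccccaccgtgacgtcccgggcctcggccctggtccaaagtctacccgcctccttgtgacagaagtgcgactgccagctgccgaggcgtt
CDIP1 downstream, chr16:4538441-4538679: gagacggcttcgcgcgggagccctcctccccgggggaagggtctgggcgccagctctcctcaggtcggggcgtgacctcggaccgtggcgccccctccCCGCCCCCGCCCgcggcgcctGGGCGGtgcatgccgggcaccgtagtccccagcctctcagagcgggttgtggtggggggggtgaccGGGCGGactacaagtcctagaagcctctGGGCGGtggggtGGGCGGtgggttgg
SLC29A1 upstream, chr6:44219365-44219582: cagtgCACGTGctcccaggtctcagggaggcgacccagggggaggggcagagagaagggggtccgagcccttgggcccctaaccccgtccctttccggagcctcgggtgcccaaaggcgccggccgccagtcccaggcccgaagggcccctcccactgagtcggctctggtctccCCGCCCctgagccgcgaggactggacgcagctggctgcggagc
SLC29A1 downstream, chr6:44223345-44223570: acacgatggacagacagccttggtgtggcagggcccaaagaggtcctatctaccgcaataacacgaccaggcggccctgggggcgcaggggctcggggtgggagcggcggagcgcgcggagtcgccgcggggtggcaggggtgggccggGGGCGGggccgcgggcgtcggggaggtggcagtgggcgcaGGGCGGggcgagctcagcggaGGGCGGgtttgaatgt

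The upstream window of CDIP1 held 1 TGACGTCA, 2 CACGTG and 1 CCAAT and no GGGCGG. The downstream window, within the intron of the upstream transcript, held 6 GGGCGG and none of the other 4. Among the first 280 bases of 35116 RefSeq promoter windows, 1.85% hold TGACGTCA, 6.94% CACGTG and 33.6% CCAAT. Among the first 239 bases, 41.2% hold GGGCGG. The upstream window of SLC29A1 held 1 CACGTG and 1 GGGCGG and its downstream window 3 GGGCGG. In windows of their lengths, 5.36% hold CACGTG and from 38.6% to 39.6% hold GGGCGG. The GC content was 64.3% and 75.3% in the upstream and downstream windows of CDIP1 and 72.9% and 73.9% in those of SLC29A1. A match is only a run of letters, and whether a factor binds there was not measured.

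Splicing differences are shown as 30-base stretches of the mature transcript, 15 bases on each side of the join, from GENCODE 29 transcripts and RefSeq windows on GRCh38. Capitals mark the bases ahead of the join. For POLR3C, on chromosome 1, the earlier donor ends at 145824369 and the later one at 145824547.
POLR3C, earlier donor: TGCGCTGACCCTGAGctctcagactcccca
POLR3C, later donor: GGATGGACGAAATAGctctcagactcccca
IVNS1ABP, intron removed: GAGCTGATGGAAGAGgttcaaaccttgtac
IVNS1ABP, cassette acceptor used: GAGCTGATGGAAGAGgtttattaacaaaac
MFAP2, intron removed: TGCTATTCCTGCCTGcaggcttgctggctc
MFAP2, intron retained: TGCTATTCCTGCCTGgtaagtggctcctgg
TFPI, 31-nt exon skipped: TCAGAGATTTTACTTagatgatttacacaa
TFPI, 31-nt exon included: GGTTAGCAGCACAAGagatgatttacacaa
In the IVNS1ABP cassette the taa that starts at base 7 after the join is the first stop codon in frame with the annotated start codon.

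**Figure D1:**
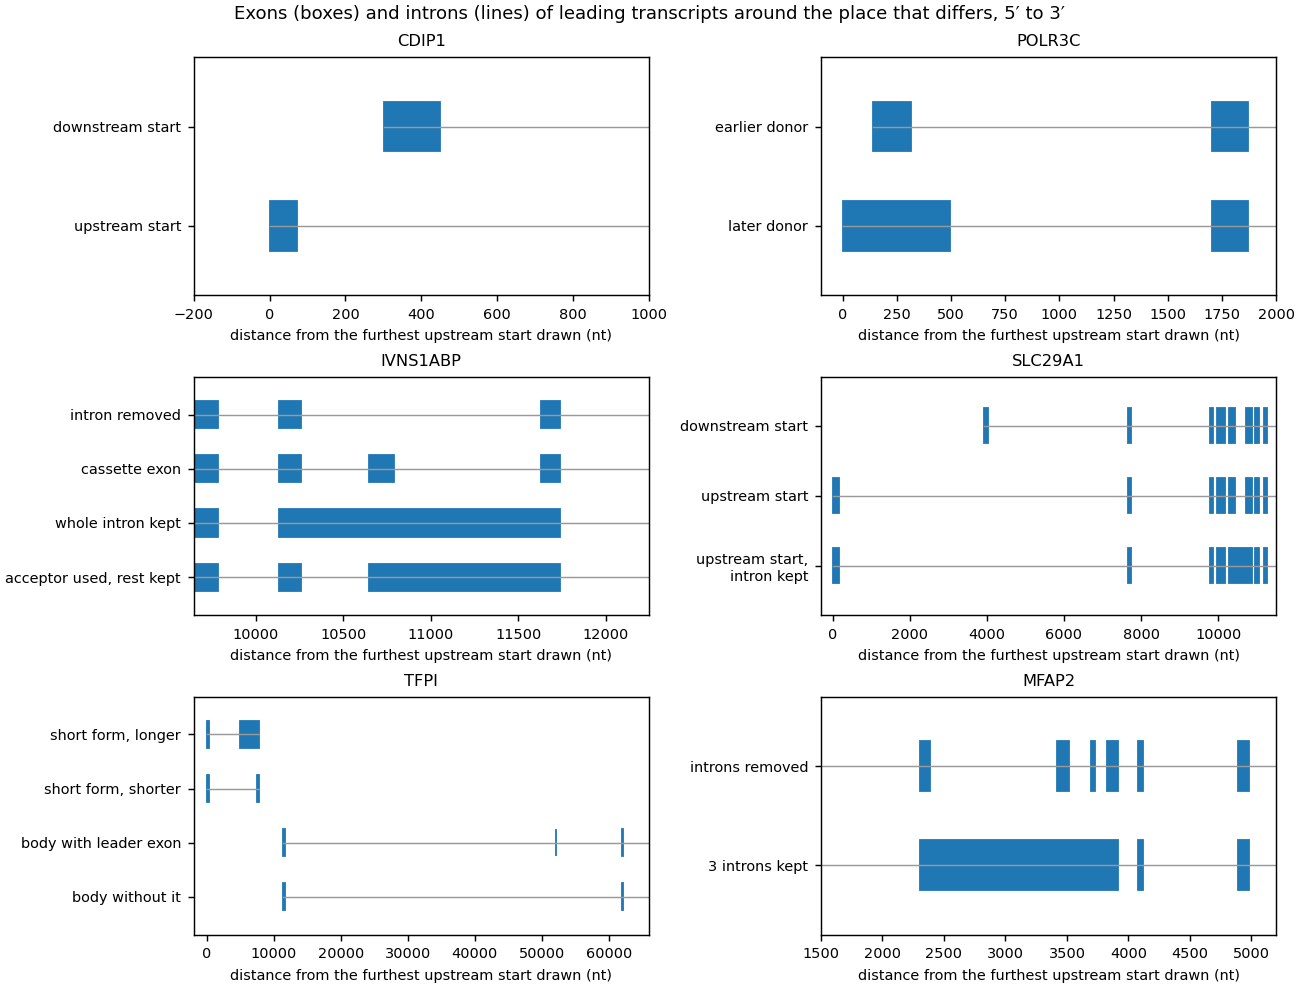
Exons (boxes) and introns (lines) of leading transcripts of the 6 genes, drawn 5′ to 3′ as distance in nt from the furthest upstream start drawn and limited to the region that differs. CDIP1 and SLC29A1 differ in the first exon, POLR3C in the end of the first exon, IVNS1ABP and MFAP2 in kept introns, and the short forms of TFPI share no exon with its coding body.

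CDIP1 (ENSG00000089486.17) had 2 transcripts, which share their other 5 exons and differ in the first. The upstream first exon lies at chr16:4538702-4538773 (72 nt) and the downstream one at chr16:4538325-4538470 (146 nt), with starts 303 nt apart. The coding region of 208 codons, chr16:4512575-4514130, is the same in both, so only the leader differs, at 176 nt and 250 nt, and neither first exon holds an ATG. The upstream start took 22 of 168 reads (13.1%) and 20 of 251 (7.97%) in hPSC, 14 of 172 (8.14%) and 11 of 84 (13.1%) in ectoderm, 132 of 164 (80.5%) and 130 of 163 (79.8%) in endoderm and, for mesoderm, 8 of 33 (24.2%) and 5 of 24 (20.8%). Thus endoderm used mainly the upstream start and the other 3 groups mainly the downstream one.

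The mean share was 80.1% ± 0.518 (SD, n = 2) in endoderm against 10.5% ± 3.63 in hPSC, 10.6% ± 3.50 in ectoderm and 22.5% ± 2.41 in mesoderm. The ectoderm libraries overlapped those of hPSC, and the endoderm and mesoderm libraries lay above them. The Wilson 95% intervals of the mesoderm libraries were 12.8% to 41.0% and 9.24% to 40.5%. Both starts differed from hPSC in amount in endoderm. Transcripts from the upstream start were at 224 ± 2.58 CPM there and 39.0 ± 4.79 in hPSC, a ratio of 5.74, and those from the downstream start were at 55.5 ± 1.17 and 346 ± 91.8, so that hPSC was 6.24 times endoderm.

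Summed over both starts, CDIP1 was at 324 and 447 CPM in hPSC, 146 and 86.8 for ectoderm, 280 and 278 for endoderm and, for mesoderm, 62.1 and 47.6. On the CPM scale the ectoderm and mesoderm libraries were below both hPSC libraries, as were the endoderm libraries by a smaller amount. The fitted log2 fold changes against hPSC, from counts scaled by TMM (edgeR's size factors), were -2.18 ± 0.35 (SE) for ectoderm, -0.16 ± 0.34 for endoderm and -3.07 ± 0.39 in mesoderm. Without hPSC replicate 2 the endoderm value was 0.29, so its sign depended on that library. In ectoderm both starts were lower to about the same degree on the CPM scale, hPSC being 3.36 and 3.31 times ectoderm for the upstream and downstream start.

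SLC29A1 (ENSG00000112759.19) also has 2 regions of transcription start. The downstream first exon ends at 44223641 and the upstream one at 44219782 on the plus strand of chromosome 6, and the main starts lie 3926 nt apart. Of 9 transcripts 5 began at the upstream start and 4 at the downstream one, and 6 of the 9 passed 5% of the gene's reads in some group with at least 10 counts in all. The annotated coding region, chr6:44227314-44233525 with 456 codons, begins after the first exons. The leader was 152 nt in the main downstream transcript and 219 nt in the main upstream one. The upstream exon of 168 nt holds 3 ATG and the downstream exon of 101 nt holds 1.

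The upstream start took 48 of 395 reads (12.2%) and 46 of 662 (6.95%) in hPSC, 199 of 765 (26.0%) and 128 of 433 (29.6%) in ectoderm, 9 of 29 (31.0%) and 7 of 38 (18.4%) in endoderm and, for mesoderm, 56 of 112 (50.0%) and 36 of 80 (45.0%). No library of a layer overlapped hPSC, and mesoderm was highest. The means were 9.55% ± 3.68 (SD, n = 2) in hPSC, 27.8% ± 2.51 for ectoderm, 24.7% ± 8.92 for endoderm and 47.5% ± 3.54 in mesoderm. Ectoderm and endoderm did not differ beyond their spread, and the endoderm libraries rest on 29 and 38 reads.

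The level from the downstream start differed more than that from the upstream one. It was 882 ± 303 CPM in hPSC, 397 ± 116 for ectoderm, 43.5 ± 13.2 for endoderm and 96.4 ± 12.8 in mesoderm, so that hPSC was 9.15 times mesoderm and 20.3 times endoderm. The upstream start was at 87.1 ± 7.49 CPM in hPSC and 88.4 ± 24.0 in mesoderm, a ratio of 1.02, at 150 ± 25.6 in ectoderm and at 13.7 ± 2.42 in endoderm. The higher upstream share in mesoderm therefore went with a lower downstream level and a like upstream level on the CPM scale. The gene as a whole was at 761 and 1178 CPM in hPSC, 648 and 448 for ectoderm, 49.5 and 64.8 for endoderm and, for mesoderm, 211 and 159. Its log2 fold changes were -1.29 ± 0.35 (SE) for ectoderm, -3.78 ± 0.41 for endoderm and -2.67 ± 0.38 in mesoderm. Without hPSC replicate 2, the higher of the hPSC libraries, the ectoderm value was -0.67.

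The most abundant SLC29A1 transcript in all 4 groups was the main downstream one, with 79.4% ± 3.47 of reads in hPSC, 60.7% ± 3.84 for ectoderm, 57.8% ± 3.79 for endoderm and 39.6% ± 0.505 in mesoderm. The main upstream transcript went from 2.98% ± 1.87 in hPSC to 30.2% ± 0.253 in mesoderm. A further transcript from the upstream start keeps a 300-nt intron, chr6:44230047-44230346, inside the coding region. Read from the annotated start codon, it has 176 codons before a stop codon, in place of 456. Transcripts with this intron, from either start, took 5.06% and 4.68% of reads in hPSC, 12.2% and 16.4% for ectoderm, 6.90% and 7.89% for endoderm and, for mesoderm, 15.2% and 8.75%. The layers lay above hPSC, with 2 and 3 reads in the endoderm libraries. Intron-retaining transcripts of all genes were also at a higher share in ectoderm and mesoderm than in hPSC, and their part in this was not tested.

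A leader exon of 107 nt, chr6:44226061-44226167, was included in 11.3% ± 0.544 of SLC29A1 reads in hPSC, 10.8% ± 0.856 for ectoderm, 24.3% ± 4.62 for endoderm and 13.6% ± 0.253 in mesoderm. The start and this exon thus had different patterns over the layers, since the exon was highest in endoderm, with 8 reads in each library there.

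POLR3C (ENSG00000186141.10) was counted as 6 transcripts, 5 of them over the limits named above. The later donor lengthens the first exon by 178 nt on chromosome 1, all ahead of the start codon at 145825777. The stretch has a GC content of 51.7% and holds 5 ATG, while the exon up to the earlier donor, from 145824195, has 64.6% and none. Read as assembled, the leader was 195 nt in the main transcript with the earlier donor and 515 nt in that with the later donor, which also starts 142 nt further upstream. Both encode the same 534 codons.

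On the combined assembly the later donor took 3 of 27 reads (11.1%) and 4 of 38 (10.5%) in hPSC, 11 of 49 (22.4%) and 8 of 32 (25.0%) in ectoderm, 49 of 59 (83.1%) and 63 of 76 (82.9%) in endoderm and, for mesoderm, 6 of 36 (16.7%) and 4 of 31 (12.9%). Endoderm stood far above the other groups, and the ectoderm and mesoderm libraries lay above hPSC by less. The means were 10.8% ± 0.414 (SD, n = 2), 23.7% ± 1.80, 83.0% ± 0.110 and 14.8% ± 2.66 in that order. With 27 to 76 reads a library, the Wilson 95% interval of the first hPSC library was 3.85% to 28.1%.

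The choice of donor depended on the transcript models the reads were counted on. The authors also deposited counts on an assembly made from each group alone. On that of endoderm the later donor took 17 of 59 reads (28.8%) and 17 of 77 (22.1%). There 37 and 48 reads fell on a transcript with the earlier donor that begins at 145824053, where the later-donor transcript begins too, and ends at 145842505. On the combined assembly the transcript with that reference name begins at 145824195 and ends at 145844402 and had 5 and 2 endoderm reads. The assemblies of the other 3 groups hold no later-donor transcript, so their share is 0 there by construction. Which start, donor or end the endoderm reads of POLR3C carry therefore cannot be told from these counts. On the combined assembly the leading model in endoderm differed from that in the other groups.

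Over all its transcripts POLR3C was at 52.0 and 67.6 CPM in hPSC, 41.5 and 33.1 for ectoderm, 101 and 130 for endoderm and, for mesoderm, 67.8 and 61.5. Endoderm was higher than hPSC in both libraries, at a log2 fold change of 1.26 ± 0.34 (SE), and ectoderm lower, at -1.12 ± 0.35. In mesoderm the fitted value was -0.14 ± 0.35, while the ratio of mean CPM to hPSC was 1.08, so its sign depended on the scaling. A transcript with an early end, at 145834484, took 6.34% ± 1.52 of reads in hPSC, 15.0% ± 9.70 for ectoderm, 3.01% ± 0.536 for endoderm and 5.78% ± 3.61 in mesoderm. One that skips 2 exons had 0 reads in both hPSC libraries and at most 5 in a library elsewhere. Both rest on a few reads a library.

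**Figure D2:**
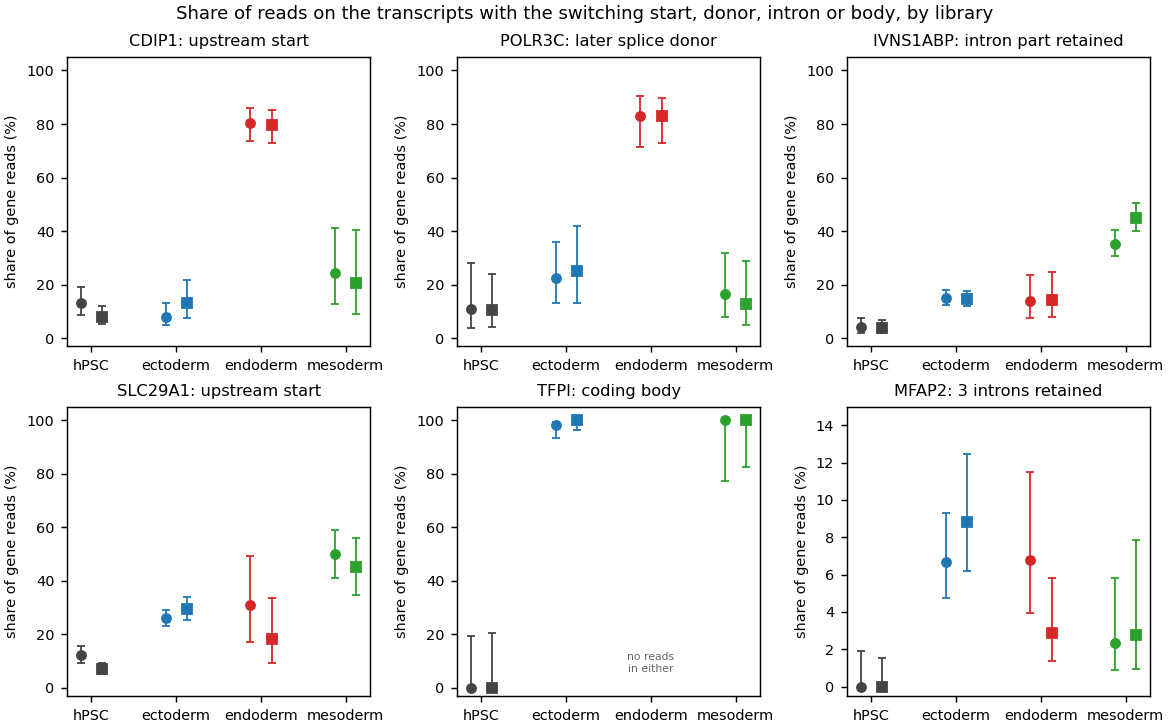
Share of each gene's reads (%, vertical axis; up to 15% for MFAP2) on transcripts with the start, donor, retained intron or body named in each panel, by group; circles are replicate 1, squares replicate 2 and bars Wilson 95% intervals. The endoderm libraries of CDIP1 lie at 80.5% and 79.8% and the mesoderm libraries of IVNS1ABP at 35.4% and 45.1%, above all other groups.

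IVNS1ABP (ENSG00000116679.16) had 4 transcripts that differ at 1 intron of the coding region, chr1:185305644-185307013 on the minus strand. The main transcript removes it. Another includes a cassette exon, chr1:185306485-185306625 (141 nt). A further one keeps the whole intron, and the last uses the acceptor of the cassette exon and keeps the 841 nt that follow it. The annotated coding region has 642 codons. Read from its start codon, the transcripts with the cassette acceptor have 221 codons before a stop codon and the transcript with the whole intron has 236. The stop codon of the last form lies 1991 nt ahead of the last exon junction.

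The 841-nt stretch was kept in 9 of 221 reads (4.07%) and 10 of 258 (3.88%) in hPSC, 98 of 655 (15.0%) and 85 of 582 (14.6%) in ectoderm, 10 of 72 (13.9%) and 10 of 69 (14.5%) in endoderm and, for mesoderm, 126 of 356 (35.4%) and 156 of 346 (45.1%). All layers were above hPSC, and mesoderm above the other layers in both libraries. The means were 3.97% ± 0.139 (SD, n = 2), 14.8% ± 0.252, 14.2% ± 0.427 and 40.2% ± 6.85. Ectoderm and endoderm did not overlap but lay close together, within the Wilson intervals of their libraries.

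Most of these reads fell on the form that uses the cassette acceptor and keeps what follows. It had 4 and 5 reads in hPSC, 72 and 57 for ectoderm, 8 and 8 for endoderm and, for mesoderm, 106 and 131, or 33.8% ± 5.72 of the gene there against 1.87% ± 0.0905 in hPSC. The form with the whole intron took 2.10% ± 0.229 in hPSC, 4.39% ± 0.595 for ectoderm, 2.84% ± 0.0854 for endoderm and 6.42% ± 1.14 in mesoderm. The cassette exon alone took 2.46% ± 0.913, 1.85% ± 0.188, 2.11% ± 0.939 and 5.41% ± 0.294 in that order. Any use of the cassette acceptor went from 4.33% ± 1.00 in hPSC to 39.2% ± 5.42 in mesoderm. Both forms that keep the stretch lack a reference identifier and were assembled from mesoderm alone. On the assembly of mesoderm the shares were 37.1% and 45.2%.

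The share of intron-retaining transcripts over all genes was higher in ectoderm and mesoderm than in hPSC. In endoderm it was at 1.61% and 1.62%, no higher than the hPSC libraries. That share leaves out both retained forms of IVNS1ABP, which carry another class code, so it cannot be set beside the share of the stretch. The part of general intron retention in the values of any layer was not tested.

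In amount, transcripts that keep the stretch were at 17.6 ± 0.326 CPM in hPSC, 85.4 ± 3.46 for ectoderm, 17.1 ± 0.0129 for endoderm and 273 ± 51.2 in mesoderm, which is 15.6 times hPSC in mesoderm. The other transcripts were at 425 ± 23.3, 493 ± 29.8, 103 ± 3.70 and 405 ± 39.6 CPM. So in endoderm the retained forms were near their hPSC level while the other forms were lower, and in mesoderm the other forms were near theirs while the retained forms were higher. The gene as a whole was at 426 and 459 CPM in hPSC, 555 and 602 for ectoderm, 123 and 118 for endoderm and, for mesoderm, 670 and 687. Its log2 fold changes were -1.56 ± 0.30 (SE) in endoderm and 0.37 ± 0.28 in mesoderm. In ectoderm the fitted value was -0.05 ± 0.28 while the ratio of mean CPM was 1.31. TMM scaling moved the median log2 ratio over all genes from 0.39 to -0.01 in ectoderm, from -0.46 to -0.13 in endoderm and from 0.25 to 0.01 in mesoderm.

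MFAP2 (ENSG00000117122.14) had 2 transcripts on the minus strand of chromosome 1, one of which keeps 3 neighbouring introns within chr1:16976795-16978236. They are 1038, 185 and 102 nt long and lie in the coding region. The spliced transcript has 183 codons. The one that keeps the introns has 27 codons before a stop codon, 1689 nt ahead of the last junction, and GENCODE 29 lists it as a processed transcript. It was assembled from ectoderm alone. The introns were kept in 0 of 198 and 0 of 244 reads in hPSC, 31 of 466 (6.65%) and 28 of 317 (8.83%) in ectoderm, 12 of 177 (6.78%) and 7 of 244 (2.87%) in endoderm and, for mesoderm, 4 of 173 (2.31%) and 3 of 108 (2.78%). A count of 0 allows up to 1.52% and 1.23% in the hPSC libraries. The libraries of all 3 layers lay above that, and endoderm overlapped ectoderm in the share.

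The mean share was 7.74% ± 1.54 (SD, n = 2) for ectoderm, 4.82% ± 2.77 for endoderm and 2.54% ± 0.329 in mesoderm. The retained form was at least 9.90-fold higher in ectoderm than in hPSC and at least 5.84-fold in endoderm, each against 3 counts over the hPSC group. The same ratio was 2.44 in mesoderm. All 3 take the reads of the layer as exact, and with 7 reads the mesoderm ratio is no firm lower bound. Ectoderm and mesoderm also had higher shares of intron-retaining transcripts over all genes, though by class codes that do not cover the MFAP2 form. The part of general intron retention in this was not tested. The spliced form stayed the main one throughout, from 92.3% ± 1.54 in ectoderm to 100% in hPSC.

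MFAP2 as a whole was at 381 and 434 CPM in hPSC, 395 and 328 for ectoderm, 302 and 416 for endoderm and, for mesoderm, 326 and 214. The ectoderm and endoderm ranges overlapped that of hPSC. The fitted log2 fold changes were -0.62 ± 0.32 (SE) for ectoderm, 0.14 ± 0.33 for endoderm and -0.85 ± 0.33 in mesoderm. The endoderm value changed sign on CPM, where hPSC was 1.13 times endoderm.

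TFPI (ENSG00000003436.16), on the minus strand of chromosome 2, had no transcript in common between hPSC and mesoderm. In hPSC all reads fell on 2 short forms of 2 exons, between chr2:187557980-187565803, of 3148 and 672 nt. They end 3545 nt ahead of the first exon of the coding transcripts, chr2:187554200-187554435, and hold no annotated coding sequence. The coding body, with the annotated coding region chr2:187466939-187503768 of 304 codons, took 0 of 16 and 0 of 15 reads in hPSC, 100 of 102 (98.0%) and 95 of 95 (100%) in ectoderm and, for mesoderm, 13 of 13 and 18 of 18 (100% in each). Endoderm had 0 reads of any TFPI transcript in both libraries, so it has no share.

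With 15 and 16 reads, a count of 0 for the coding body in hPSC allows a share of up to 20.0% and 18.8%. In amount, the coding body was at least 32.7-fold higher in ectoderm and at least 10.8-fold higher in mesoderm than in hPSC, against 3 counts over the hPSC group. The short forms were at least 11.2-fold lower in endoderm and 9.89-fold lower in mesoderm than in hPSC, again as bounds. Ectoderm had 2 short-form reads. Summed over all transcripts, TFPI was at 30.8 and 26.7 CPM in hPSC, 86.4 and 98.2 in ectoderm, 0 in each endoderm library and, for mesoderm, 24.5 and 35.7. A gene sum thus gave like levels for hPSC and mesoderm, at a log2 fold change of -0.17 ± 0.41 (SE) and a ratio of mean CPM of 1.05, although the transcripts counted had nothing in common. In ectoderm the log2 fold change was 1.26 ± 0.35.

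Ectoderm and mesoderm differed in the leader of the coding body. An exon of 31 nt, chr2:187513616-187513646, was included in 97 of 100 (97.0%) and 89 of 95 (93.7%) coding reads in ectoderm and in 4 of 13 (30.8%) and 3 of 18 (16.7%) in mesoderm. The libraries did not overlap, though mesoderm had only 13 and 18 coding reads. Of the reads with the exon, 7 and 4 in ectoderm and 2 and 0 in mesoderm fell on a transcript that begins inside it, at 187513641. The transcript with this exon joined to the upstream first exon took 88.9% ± 0.876 of TFPI reads in ectoderm and 16.0% ± 0.907 in mesoderm. The one without it took 4.10% ± 1.64 and 48.1% ± 2.72, and one with another leader exon 0.526% ± 0.744 and 28.2% ± 7.25. The leaders were 269, 238 and 360 nt, ahead of the same 304 codons.

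**Figure D3:**
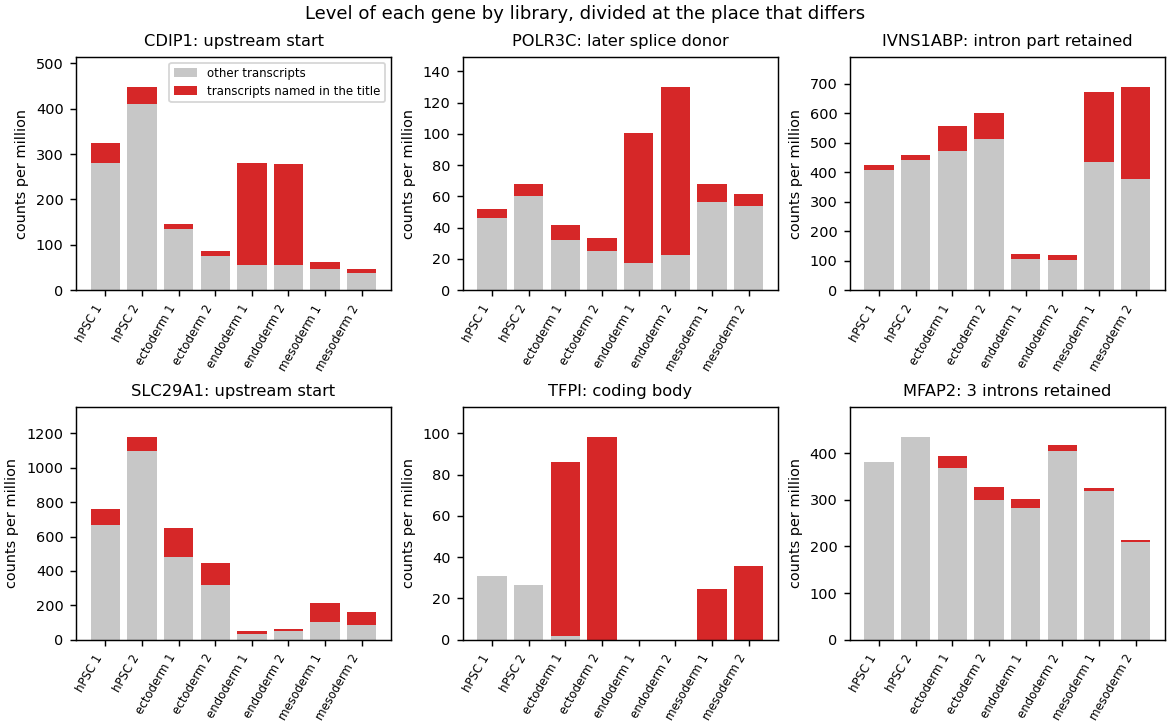
Level of each gene in CPM (vertical axis) in the 8 libraries (horizontal axis), with the transcripts named in the panel title in red on top of all others in grey. In CDIP1 the endoderm libraries are mostly red at 280 and 278 CPM, and TFPI is grey only in hPSC and at 0 in endoderm.

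By the place that differed on the combined assembly, CDIP1, SLC29A1 and POLR3C differed ahead of the start codon, with the same coding region in their leading transcripts. For POLR3C that place rests on this assembly alone. The retained forms of IVNS1ABP and MFAP2 shorten the reading frame from the annotated start codon. TFPI was counted as short forms without annotated coding sequence in hPSC and, apart from 2 ectoderm reads, as coding forms in ectoderm and mesoderm. For the 5 genes other than POLR3C, in endoderm (CDIP1), mesoderm (IVNS1ABP and SLC29A1) or ectoderm (TFPI and MFAP2), the assembly of that layer gave a share near that of the combined assembly, from 84.1% and 78.5% for CDIP1 in endoderm to 6.20% and 8.83% for MFAP2 in ectoderm. For TFPI the assemblies of ectoderm and mesoderm hold coding forms only, so the share of 100% on them was fixed by construction. The retained forms of IVNS1ABP and MFAP2 were assembled from the layer named here alone, and the assemblies of the other groups hold none.

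**Figure D4:**
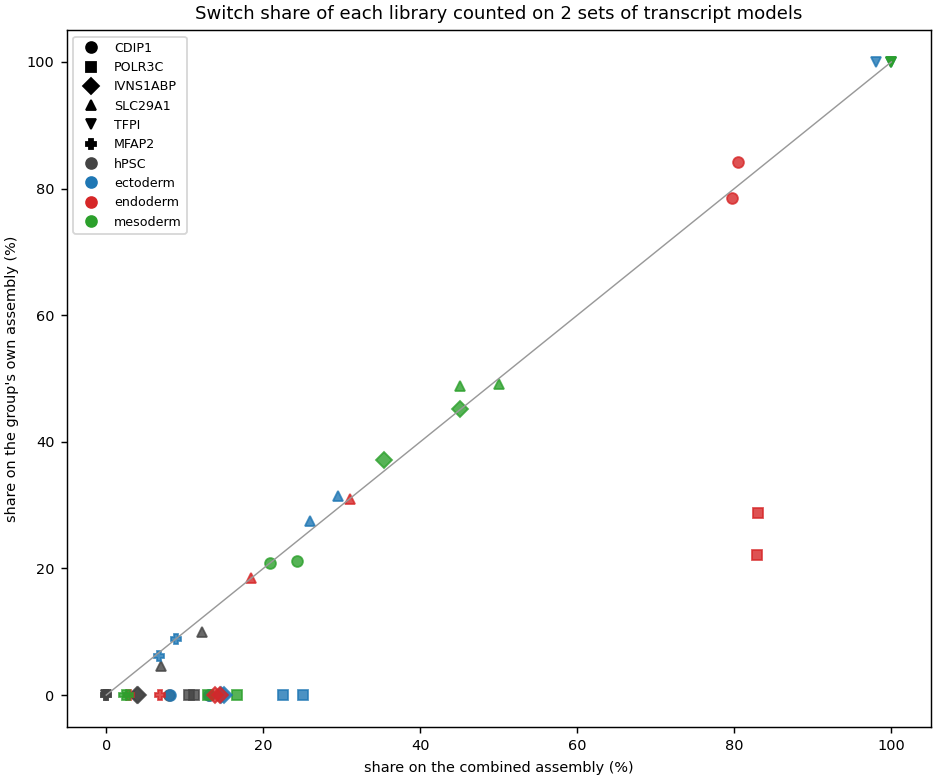
Switch share of each library on the combined assembly (horizontal axis, %) against the share on the assembly made from its own group (vertical axis, %), with shapes for genes, colours for groups and a line of equal values. The endoderm libraries of POLR3C fall from 83.1% and 82.9% to 28.8% and 22.1%, and points at 0 on the vertical axis with a share above 0 come from group assemblies that hold no such transcript.

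Other transcripts with a like pattern of shares were looked for among 672 transcripts of 462 genes with at least 20 reads in every library and a share range of at least 30 percentage points. Likeness was the root mean square difference in share over the 8 libraries. Nearest to the CDIP1 upstream start were a transcript of ATG13, an autophagy gene, at 9.31 percentage points, and one of COL1A1, a collagen gene, at 10.3. The same pair was nearest to the POLR3C later donor, at 7.71 and 9.43. The ATG13 transcript took 14.6% and 15.7% in hPSC and 71.4% and 67.9% in endoderm. Nearest to the IVNS1ABP stretch were transcripts of KIFC1 (5.28) and LIMK2 (6.12), and nearest to the SLC29A1 upstream start were WDR6 (8.64) and PKMYT1 (9.05), in percentage points. TFPI has too few reads for such a comparison, and the share of MFAP2 moves by less than the range asked of the other transcripts, so no like pattern could be found for it. These are descriptions over 8 libraries that share their groups.

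The genes that work with the 6 were taken from 6 lists of known function and tested at gene level with edgeR's quasi-likelihood test (Benjamini-Hochberg adjusted over 10847 genes). Of all genes tested, 48.6% were called for ectoderm, 27.2% for endoderm and 35.1% in mesoderm. By direction, 23.8% were higher and 24.8% lower in ectoderm than in hPSC, 13.4% and 13.7% in endoderm and, for mesoderm, 16.9% and 18.2%. The median log2 fold change of all genes was -0.01, -0.13 and 0.01. It also moved between fits, and in ectoderm it was 0.18 without hPSC replicate 1 and 0.09 without ectoderm replicate 2. The cell death and coagulation medians of those fits, 0.14 and 0.02, lay below it. Each list has its counts in each layer and its median beside the values of the main fit. The 3 comparisons share the hPSC libraries. The mean length of the transcripts that the reads were counted on also differed, with 4406 and 4650 nt for the ectoderm libraries and 3765 and 3840 nt for mesoderm, above the 3298 and 3114 nt of hPSC and the 3073 and 2975 nt of endoderm. Its part in the changes of the lists was not tested.

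Of 32 tested genes of the RNA polymerase III machinery, 3 were higher and 15 lower in ectoderm (median -0.56), 1 and 1 in endoderm (-0.10) and, for mesoderm, 1 and 14 (-0.72). The counts of lower genes depended on single libraries. In mesoderm 14 became 3 without mesoderm replicate 1 and 2 without mesoderm replicate 2, fits that called 2262 and 2012 genes in all against 3810. It became 7 without hPSC replicate 2, 8 without either ectoderm library and 6 with DESeq2. In ectoderm 15 became 8 and 9 without ectoderm replicate 1 and 2, and 8 with DESeq2. In endoderm, leaving out hPSC replicate 2 gave 5 higher genes and a median of 0.06. POLR3G, a subunit that marks pluripotent cells and has the alternative POLR3GL, went from 16 and 20 counts in hPSC to 18 and 12 in the deeper ectoderm libraries, 0 in each endoderm library and 0 and 2 in mesoderm. It was at least 13.0-fold lower in endoderm (edgeR adjusted p 0.000632) and 17.2-fold lower in mesoderm (counting interval 4.44 to 148; adjusted p 0.00075). POLR2E and POLR2L, subunits that the 3 polymerases share, fell in ectoderm (-1.82 ± 0.32 and -1.62 ± 0.32; log2 scale, SE; edgeR adjusted p 0.000391 and 0.000927). SNAPC3, of the complex that binds small nuclear RNA promoters, rose there by 1.67 ± 0.31 (edgeR adjusted p 0.00052). In endoderm, where POLR3C itself was higher, BRF2, a subunit of the factor TFIIIB, was the 1 gene of the list that rose, by 1.33 ± 0.34 on the log2 scale (SE; edgeR adjusted p 0.00876), with 45 and 50 counts against 22 and 22 in hPSC. It was named after its value was seen, and the call was lost without endoderm replicate 2 (edgeR adjusted p 0.0513) and with DESeq2 (0.0871).

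Of 15 tested genes of cell death and its control, 1 was higher and 6 lower in ectoderm (median -0.20), 3 and 3 in endoderm (0.51) and, for mesoderm, 1 and 8 (-1.09). Without either mesoderm library 4 were lower in mesoderm, and without hPSC replicate 1 there were 4 higher in ectoderm, where the median turned to 0.14, and 6 in endoderm. CDKN1A, an inhibitor that stops the cell cycle, rose in endoderm by 3.21 ± 0.33 (SE) on the log2 scale (edgeR adjusted p 7.08e-06), with 327 and 314 counts against 34 and 46 in hPSC, and fell in mesoderm (-1.18 ± 0.37; adjusted p 0.0221). BAK1, an effector of mitochondrial cell death, rose in endoderm by 1.54 ± 0.32 (edgeR adjusted p 0.00253) and fell in ectoderm (-2.32 ± 0.34) and in mesoderm (-1.99 ± 0.35; edgeR adjusted p 9.21e-05 and 0.000484). BAX, its relative, fell in ectoderm (-1.42 ± 0.31) and in mesoderm (-2.51 ± 0.35; edgeR adjusted p 0.00162 and 7.5e-05). BCAP31, a membrane protein of the endoplasmic reticulum that binds CDIP1, fell in ectoderm (-2.38 ± 0.35) and in mesoderm (-1.09 ± 0.34; edgeR adjusted p 8.68e-05 and 0.0204). The mesoderm calls of CDKN1A and BCAP31 were lost without hPSC replicate 2 (edgeR adjusted p 0.111 and 0.0864) and without either mesoderm library (0.0942 to 0.155).

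Of 19 tested genes of nucleoside transport and salvage, 1 was higher and 10 lower in ectoderm (median -1.07), 1 and 4 in endoderm (-0.22) and, for mesoderm, 0 and 8 (-0.80). Without ectoderm replicate 2 the 10 became 5, and without mesoderm replicate 1 or 2 the 8 became 4 or 5. The endoderm median turned to 0.03 without endoderm replicate 1. APRT, which salvages adenine, fell in ectoderm (-2.22 ± 0.32) and in mesoderm (-2.43 ± 0.34; log2 scale, SE; edgeR adjusted p 8.81e-05 and 7.12e-05). UCKL1, a uridine kinase homologue, fell in ectoderm (-2.47 ± 0.37; edgeR adjusted p 0.000112). UPP1, which splits uridine, rose in endoderm by 2.38 ± 0.37 (edgeR adjusted p 0.000251). SAMHD1, which degrades deoxynucleotides, had 44 and 30 counts in hPSC, 3 and 0 in endoderm and 0 and 3 in mesoderm, 26.7-fold (counting interval 8.80 to 133) and 23.6-fold (7.77 to 117) lower. The other equilibrative transporters SLC29A2 and SLC29A3, named after their values were seen, were at -0.95 ± 0.37 and -1.24 ± 0.35 in ectoderm and at -1.08 ± 0.40 and -1.05 ± 0.38 in mesoderm (log2 scale, SE). All 4 passed the edgeR test (adjusted p 0.0434, 0.00897, 0.0465 and 0.0437), but none with DESeq2 (0.229, 0.109, 0.200 and 0.250).

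Of 29 tested BTB-kelch genes with CUL3, the scaffold of their ubiquitin ligases, 13 were higher and 1 lower in ectoderm (median 0.83), 3 and 4 in endoderm (-0.29) and, for mesoderm, 3 and 4 (0.64). With DESeq2 the 13 became 5. The mesoderm median turned to -0.22 at a minimum count of 20, and the endoderm median to 0.40 without hPSC replicate 1. ENC1 had 2 counts in each hPSC library and 33 and 51 in ectoderm and 29 and 20 in endoderm, at log2 fold changes of 2.95 ± 0.61 and 3.77 ± 0.61 (SE; edgeR adjusted p 0.00119 and 0.000339). KBTBD4 rose in endoderm by 1.77 ± 0.32 (edgeR adjusted p 0.000806). KEAP1, the sensor that holds NRF2 in check, fell in ectoderm (-1.63 ± 0.30) and in mesoderm (-1.02 ± 0.30; edgeR adjusted p 0.000493 and 0.0161), the latter lost without either mesoderm library (0.0554 and 0.173). KLHL3 went from 14 and 11 counts in hPSC to 0 and 1 in endoderm and 1 and 0 in mesoderm, 27.1-fold (counting interval 4.43 to 1112) and 23.9-fold (3.92 to 982) lower.

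Of 12 tested coagulation and fibrinolysis genes, 2 were higher and 4 lower in ectoderm (median -0.69), 4 and 2 in endoderm (0.39) and, for mesoderm, 3 and 1 (0.37). The ectoderm median turned to 0.02 without ectoderm replicate 2 and the endoderm median to -0.05 at a minimum count of 20, and 2 genes were lower in ectoderm without either of its libraries. GPC3, a glypican that can bind TFPI at the cell surface, rose in ectoderm by 2.92 ± 0.33 (SE) on the log2 scale (edgeR adjusted p 1.19e-05), with 1634 and 1205 counts against 62 and 77, and in mesoderm by 1.79 ± 0.32, and fell in endoderm (-4.07 ± 0.49) to 2 and 5 counts (adjusted p 2.43e-05). SERPINE2, a protease inhibitor, rose in endoderm by 3.62 ± 0.42 (edgeR adjusted p 2.04e-05). VKORC1, of the vitamin K cycle, fell in ectoderm (-1.79 ± 0.37; edgeR adjusted p 0.00124).

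Of 18 tested elastic microfibril genes, 5 were higher and 3 lower in ectoderm (median 0.48), 5 and 4 in endoderm (0.32) and, for mesoderm, 10 and 2 (1.60). The 4 calls of lower genes in endoderm were all lost in edgeR without either one of the endoderm libraries, and 1 was left with DESeq2 on all libraries. The 5 higher genes in ectoderm became 3 without ectoderm replicate 2 and 8 without hPSC replicate 1. FBN2, a fibrillin to which MFAP2 can bind, rose from 8 and 5 counts in hPSC to 414 and 393 in ectoderm and 117 and 83 in endoderm, by 4.54 ± 0.39 and 4.15 ± 0.40 (SE) on the log2 scale (edgeR adjusted p 7.21e-07 and 3.37e-06). LOXL2, a lysyl oxidase, rose in mesoderm by 2.81 ± 0.30 (edgeR adjusted p 6.01e-06). EFEMP2, needed for elastic fibre assembly, rose in endoderm by 3.36 ± 0.47 and in mesoderm by 3.55 ± 0.46 (edgeR adjusted p 0.000101 and 3.2e-05). ADAMTSL4, a fibrillin-binding protein, rose in mesoderm by 3.90 ± 0.54, to 69 and 83 counts from 8 and 1 (edgeR adjusted p 8.33e-05). MFAP2 stands beside them with a log2 fold change of -0.85 in mesoderm.

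**Figure D5:**
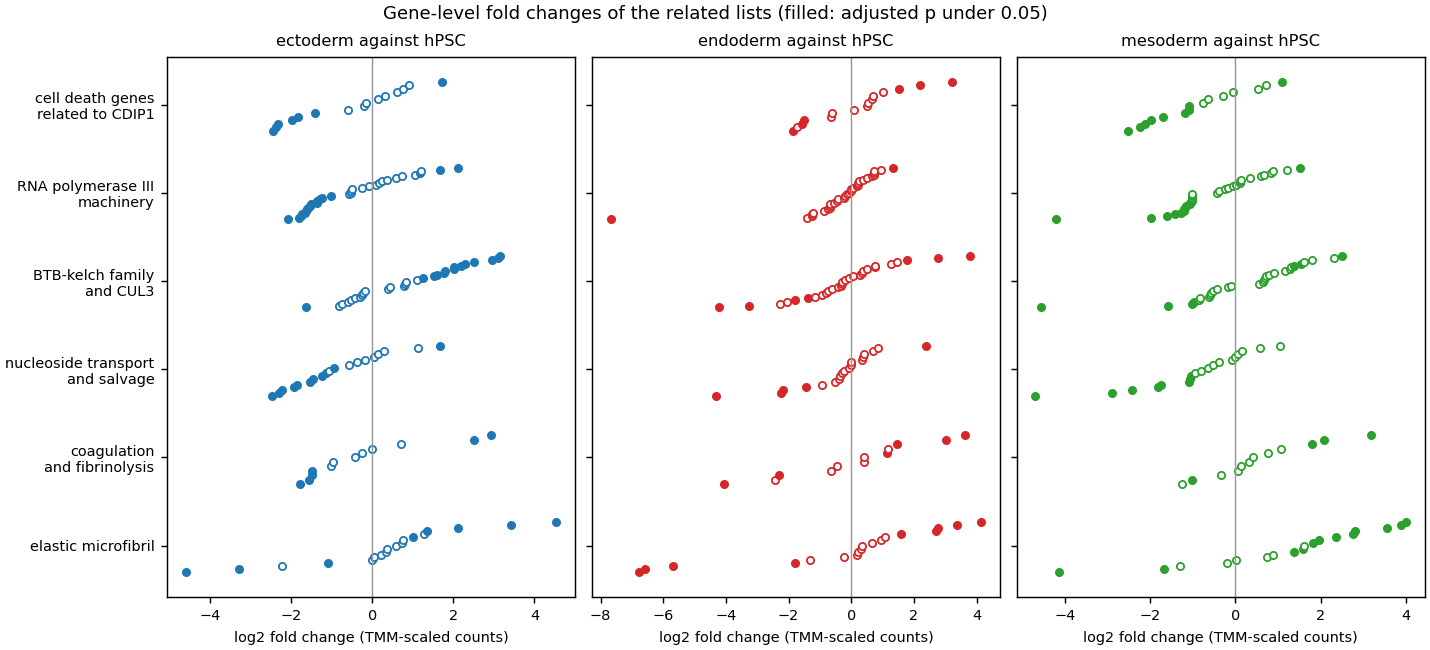
Log2 fold change of each tested gene of the 6 lists (horizontal axis, TMM-scaled counts) in each layer against hPSC, with filled points for genes at an adjusted p under 0.05 in edgeR's test; the horizontal axes differ between panels. The polymerase III genes have 15 filled points below 0 in ectoderm, 14 in mesoderm and 1 in endoderm, where the 14 became 2 or 3 without 1 mesoderm library, and the most extreme points are genes with 0 to 3 counts in a group, whose size is not measured.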

How the data were processed

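The 8 long-read libraries were made on the Sequel II instrument of PacBio, per the labels, whose titles give the groups. The authors deposited raw read counts of transcripts assembled from all groups together and from each group alone. The unit expected count was recorded for the deposited endoderm columns only because of their names; they hold whole counts, and nothing was rounded. The submitters' processing notes name minimap2, StringTie and GRCh38. The counter, the annotation release and the treatment of reads shared between transcripts or strands are not given in the sources used here. GENCODE 29, from which coding regions and reading frames were taken, holds 12 of the transcript identifiers, 11 with equal introns.

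Transcripts were sorted by whether they hold the start, donor, intron or body that differs, and each share is reads with it over all reads of the gene, with a Wilson 95% interval. CPM uses the library total. For gene sums edgeR 4.0.16 was run under R 4.3.3 (TMM, filterByExpr at a minimum count of 10, glmQLFit and glmQLFTest over all 8 libraries, two-sided) and transcript choice with diffSpliceDGE. Both were tested on simulated data. The SE is the log2 fold change divided by the square root of the F statistic. Where a group was at 0, folds are bounds against 3 counts over the group, with the counts of the other group taken as exact. With 1 to 3 counts they have an exact binomial 95% counting interval. Alternatives were DESeq2 1.42.0, RLE factors, other count minimums, a replicate term, each library left out, Simes combination, and other sets of transcripts for the shares.

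The 6 genes, the lists and the rule for named genes were chosen with earlier results of these data known. The rule names, per list, up to 4 called genes with the smallest p and those called in transcript choice; some genes that it names are not reported here. The 9847 transcripts listed under a gene by position only entered no gene sum.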

Additional observations from a re-analysis of the deposited data

Results flagged for a closer look

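The level of POLR3C moved in opposite ways in 2 layers. Both endoderm libraries were above and both ectoderm libraries below the hPSC libraries, at 55.4 CPM above and 22.5 CPM below the hPSC mean, which is a difference of 77.9 CPM between the 2 effects. The difference was not tested, since the gene was chosen from these contrasts.

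The level of IVNS1ABP was below both hPSC libraries in endoderm and above them in mesoderm and ectoderm. The effects differed by 558 CPM between mesoderm and endoderm and by 458 CPM between ectoderm and endoderm. These differences were not tested. On TMM-scaled counts ectoderm was at -0.05 on the log2 scale, so its position above hPSC holds for CPM only.

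The level of TFPI was above both hPSC libraries in ectoderm and at 0 in endoderm, with the effects 92.3 CPM apart. This was not tested either, and the hPSC and ectoderm reads belong to different transcripts, apart from 2 reads.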

How the results depend on the processing

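The share differences from hPSC were recomputed in endoderm for CDIP1 and POLR3C, in mesoderm for IVNS1ABP and SLC29A1 and in ectoderm for TFPI and MFAP2. Of 53 alternatives 47 stayed within 1 SD and none changed sign. Leaving out 1 of 2 libraries moves a mean by less than that SD, so those alternatives were bound to stay within it. Adding the transcript left out by the rule can alter TFPI alone, so for the other genes that alternative repeats the main value. On the group assemblies the TFPI shares of hPSC and ectoderm were fixed by construction. The count of 47 is therefore no measure of stability. Counts on the assembly of each group moved CDIP1 from 69.6 to 81.3 percentage points and POLR3C from 72.2 to 25.4. POLR3C, with a small spread, also moved with reference transcripts alone (75.3), with transcripts of at least 10 counts (72.9) and with the 2 leading transcripts alone (81.6). IVNS1ABP is at 0 with reference transcripts alone, since both retained forms lack an identifier, and TFPI has no value there, since hPSC then has no reads. Leaving out 1 library gave 67.0 to 72.2 for CDIP1, 71.9 to 72.4 for POLR3C, 31.4 to 41.1 for IVNS1ABP, 35.3 to 40.6 for SLC29A1, 98.0 to 100 for TFPI and 6.65 to 8.83 for MFAP2.

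The gene-level calls, 5274, 2946 and 3810 in ectoderm, endoderm and mesoderm, were 2839, 1604 and 2047 with DESeq2's Wald test. Leaving out 1 library gave 3293 to 5960, 1455 to 4067 and 2012 to 5084, with the lowest values without a library of the layer itself. Calls for transcript choice, 148, 133 and 184 of 2629 genes tested, were 70, 56 and 78 with Simes combination. At a minimum count of 20 they were 83, 84 and 134, but of only 1168 genes tested. Without a filter they were 128, 116 and 113 of 14598. Leaving out 1 library gave 12 to 307, 24 to 211 and 37 to 312. Over the 3 layers DESeq2 left 17 of 35 calls of the polymerase III list, 13 of 28 of the BTB-kelch list and 18 of 29 of the microfibril list. Leaving out 1 library gave 21 to 37 for polymerase III, 20 to 32 for BTB-kelch, 24 to 37 for microfibril, 19 to 29 for cell death, 16 to 27 for nucleoside and 13 to 20 for coagulation genes. These sums over the layers hide larger moves within a layer, given with each list. The causes were not tested, beyond fewer samples or genes.

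Same-numbered repeats did not deviate together: the correlation of their deviations was -0.03 to 0.15 over the 6 pairs of groups. With a replicate block, gene-level calls were 5104, 2803 and 3615 and transcript-choice calls 98, 97 and 135. Of 238 alternatives for the 17 fitted fold changes of the 6 genes, 214 stayed within 1 SE. With library totals in place of TMM, chosen after the data were seen, 4 of the 17, all smaller than their SE, changed sign: POLR3C and TFPI in mesoderm, IVNS1ABP in ectoderm and MFAP2 in endoderm. Libraries with few reads limit the shares of POLR3C, TFPI, mesoderm CDIP1 and endoderm SLC29A1.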

Other observations

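Genes of the related lists were also tested for transcript choice (edgeR's diffSpliceDGE, Benjamini-Hochberg adjusted over 2629 genes). GTF3C5, a subunit of the factor that recruits polymerase III to its genes, was called in all 3 layers. Its main transcript took 81.2% and 72.6% of reads in hPSC, 65.3% and 57.6% in ectoderm, and 59.8% and 56.0% in endoderm. The transcript that gained most differed between the layers. One took 3.47% and 1.92% in hPSC and 18.1% and 27.8% in ectoderm (adjusted p 0.00206), and another took 2.08% and 3.37% in hPSC and 21.2% and 24.7% in endoderm (adjusted p 0.00195). In mesoderm (adjusted p 0.0141) the former took 10.8% and 20.5%. Of 13 alternatives the calls of GTF3C5 held in 12, 12 and 10, and were lost without ectoderm replicate 2 in ectoderm (0.162), without endoderm replicate 2 in endoderm (0.0879) and, for mesoderm, without hPSC replicate 2 (0.102), without mesoderm replicate 2 (0.183) and without a filter (0.0558). GTF3C1, of the same factor, was called in mesoderm (adjusted p 0.0438), where 1 transcript was at 56.3% and 51.7% against 33.9% and 23.4% in hPSC. That call held in 3 of 13 alternatives and was lost with a replicate block (0.0741), with Simes combination (0.449) and in 7 of the fits without 1 library.

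LOXL3 was called in ectoderm (edgeR adjusted p 0.0283), with 1 of its 2 transcripts at 52.0% and 45.0% in hPSC and 83.0% and 85.7% in ectoderm. In endoderm that transcript was at 14.3% and 22.2% of 7 and 9 reads. FBN2 in endoderm (edgeR adjusted p 0.0277) and EFEMP2 in endoderm and mesoderm (0.0142 and 0.0303) were called as well, with only 8 and 5 and only 5 and 2 reads in the hPSC libraries. None of these calls held with Simes combination (adjusted p 0.121 to 0.334), and those of LOXL3 and, in mesoderm, EFEMP2 were also lost with a replicate block (0.0585 and 0.0513). Of 12 alternatives the LOXL3 call held in 4, that of FBN2 in 2 and those of EFEMP2 in 3 and 1.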
